A study of Mus musculus with 9 samples.

Results

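The genes described here are the glucose transporter Slc2a1, 8 enzymes of glycolysis (Hk1, Pfkp, Aldoa, Tpi1, Gapdh, Pgk1, Eno1 and Pkm) and the lactate dehydrogenase Ldha. They were taken by symbol from the table of expression values, in which they make up 10 of 15820 entries that carry a gene symbol and of 22013 entries in all. Gapdh was included because the study used it as the house-keeping gene of its RT-qPCR, and its spread over the libraries was compared with that of the other members. RT-qPCR values were not analysed here. The data comprised 9 RNA-seq libraries of mouse lenses from stage E16.5 of embryonic development, 3 for each of 3 genotypes, and each library pooled 8 lenses. Control lenses were Mafg+/-:Mafk+/-, compound knockout (KO) lenses were Mafg-/-:Mafk+/- and double KO lenses were Mafg-/-:Mafk-/-. All 3 groups therefore carried at least 1 germline knockout allele of both genes, and wild-type lenses were not part of the data. The alleles are germline, so that each knockout allele was carried by every cell of the embryo and not by the lens alone. P-values measure the spread between these pools of lenses.

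Glycolysis splits glucose into pyruvate in the cytoplasm and yields ATP and NADH without oxygen, and lactate dehydrogenase then turns pyruvate into lactate and restores NAD+. The lens has no blood vessels once the fetal vasculature has regressed, its mature fiber cells lose their mitochondria, and it draws most of its ATP from glycolysis. Gapdh, which catalyses the NADH-yielding step of the pathway, is also a common reference gene because its mRNA is abundant in most tissues. Its mRNA has been copied back into the mouse genome many times as processed pseudogenes.

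Pseudogene copies of Gapdh are shown first because many of them have entries of their own in the table. The coding sequence of Gapdh (chromosome 6, 125135289 to 125143518, minus strand of GRCm39) was searched against the genome of the same build. Matches over 80% or more of the coding bases were found at 253 places with an identity of 80% or more and at 68 places with 95% or more. At the latter, 67 annotated pseudogenes lay. Of these, 36 had an entry of their own in the expression table. The Gapdh mRNA and the copies with the highest mean values over the libraries, Gm13394, Gm5559 and Gm7336, are compared below over coding bases 296 to 396 of Gapdh, a stretch as long as 1 sequencing read, with bases that differ from Gapdh in capitals. The stretch was placed around the single difference of Gm13394 and the copies were chosen after their values were seen.
Gapdh: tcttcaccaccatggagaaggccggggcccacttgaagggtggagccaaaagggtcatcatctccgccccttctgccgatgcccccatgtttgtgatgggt
Gm13394: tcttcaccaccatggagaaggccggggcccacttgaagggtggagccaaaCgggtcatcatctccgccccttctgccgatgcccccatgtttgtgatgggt
Gm5559: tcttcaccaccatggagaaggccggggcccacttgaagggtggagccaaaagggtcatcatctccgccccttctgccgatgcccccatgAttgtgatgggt
Gm7336: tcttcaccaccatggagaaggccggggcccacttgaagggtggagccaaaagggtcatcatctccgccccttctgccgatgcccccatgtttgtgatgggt
Gm7336 (chromosome 7, 51396445 to 51397443) was identical to Gapdh over all 999 coding bases, while Gm13394 (chromosome 2, 28823623 to 28824621) and Gm5559 (chromosome 5, 96009573 to 96010571) were 99.9% identical. When the coding sequence was cut into every stretch of 1 read length, 899 of 899 stretches of Gapdh were found without a mismatch elsewhere in the genome.

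The other members differed widely in this respect. All 1151 stretches of Pgk1 also occurred elsewhere, in the copies Gm5537 and Pgk1-rs7. For Eno1, 831 of 1202 stretches (69.1%) did so, and for Pkm, Ldha and Tpi1 the share was 10.2%, 2.23% and 1.55%. Hk1, Pfkp, Aldoa and Slc2a1 had none. The untranslated parts of the mRNAs were not compared. How the aligner and the assembler shared reads between such places is not given in the sources used here.

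The genotypes were checked in the table itself. Mafg values were 112.9, 120.7 and 134.5 in control lenses, 10.1, 21.0 and 24.1 in compound KO lenses and 24.6, 21.2 and 26.2 in double KO lenses. Mafk values were 5.2, 6.3 and 5.6 in control, 4.3, 5.3 and 4.8 in compound KO and 0.6, 0.0 and 0.3 in double KO lenses. Neither gene overlapped between the groups that carried a functional allele and those that did not. The unit of the values is not given in the sources used here. They were taken as normalized CPM, a read count scaled to the size of its library, because they have 1 decimal and the library totals below lie near those of CPM, and levels per kilobase rest on this reading. In this unit the 9 libraries summed to 728036 to 1131184, and the read depth behind them is unknown. Compound KO replicate 1 stood apart, with the lowest total, a summed level of 12 lens fiber cell markers of 26584 against 44224 or more in the other libraries, and a sum of 10 mesenchyme markers of 2225 against 257 or less. Member results that rest on it are also given without it. Lens fiber markers had a higher sum than any other list of cell type markers in every library. In pooled tissue, fewer cells of a type and less RNA per cell cannot be told apart.

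The Gapdh entry was low and uneven. Its values were 18.8, 34.8 and 82.9 in control lenses, 33.9, 31.9 and 51.1 in compound KO lenses and 39.4, 40.5 and 54.2 in double KO lenses. Both the lowest and the highest value were those of control libraries, and the values of both mutant groups lay between them. The mean and SD of 3 libraries were 45.5 ± 33.4 in the control group, 39.0 ± 10.6 in the compound KO group and 44.7 ± 8.25 in the double KO group. The highest library exceeded the lowest by 4.41 times. Between replicates of 1 genotype the SD of log2(value + 1), pooled over the groups, was 0.66, and it was 1.05 in control, 0.36 in compound KO and 0.25 in double KO lenses. Without control replicate 3 the pooled SD was 0.39.

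**Figure D1:**
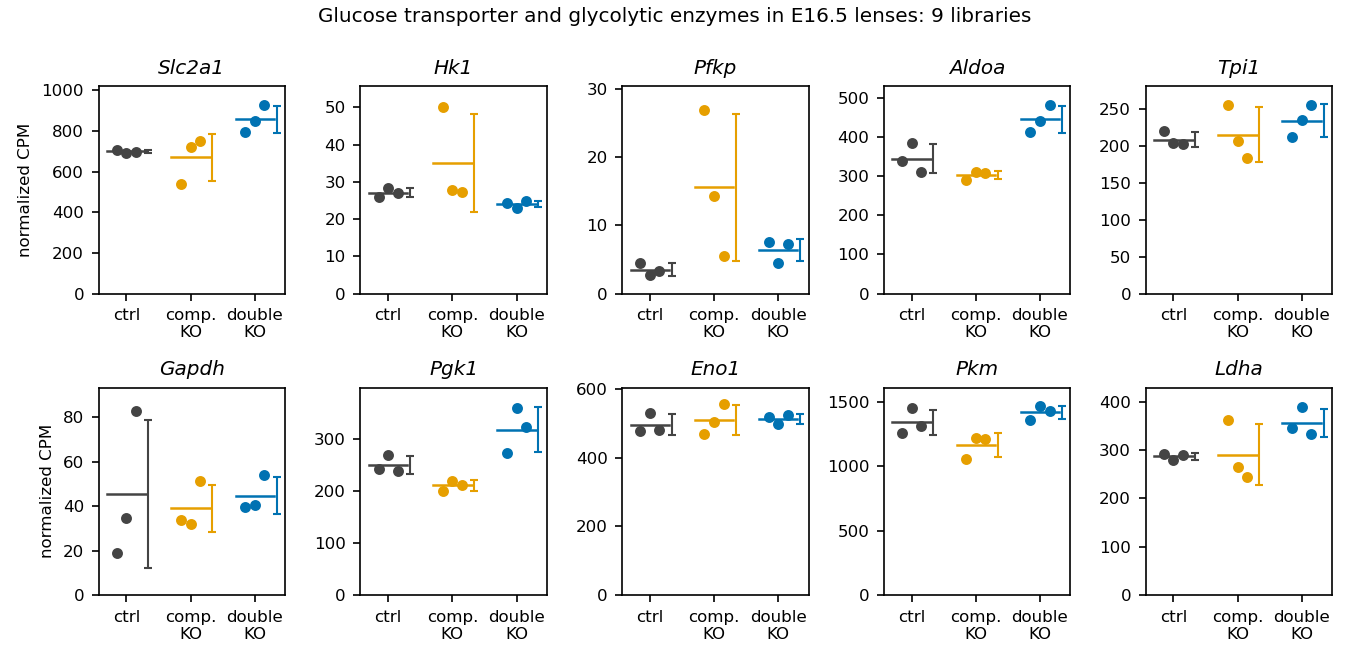
Normalized CPM (y axis, from 0) of the 10 members in 3 control (ctrl), 3 compound KO (comp. KO) and 3 double KO libraries. Points are libraries, horizontal lines are group means and bars are the mean ± SD. The control values of Gapdh run from 18.8 to 82.9, while those of Slc2a1 run from 691.8 to 708.8.

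Among the members, only Pfkp, which catalyses the committed step of glycolysis as its platelet-type isoform, had a larger SD (0.67), at a far lower level. The remaining members had SDs of 0.29 (Hk1), 0.19 (Ldha), 0.17 (Slc2a1 and Tpi1), 0.13 (Pgk1), 0.12 (Aldoa), 0.10 (Pkm) and 0.09 (Eno1). The SD of Gapdh was 3.95 times the median of the 9 other members (0.17). It was also larger than that of 89.1% of 8151 entries with a mean of at least 10, whose median was 0.18. Eno1, which makes phosphoenolpyruvate, was the most even member, with a ratio of 1.18 between its highest (555.6) and lowest (469.0) library. Without compound KO replicate 1 the SD of Gapdh was 0.71 and the largest of the members, that of Pfkp was 0.48, that of Hk1 0.05, and those of Slc2a1, Ldha and Tpi1 were 0.07, 0.08 and 0.11.

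Gapdh was also set against 15 genes that are often used as RT-qPCR references. Of these, 14 had smaller SDs, from 0.07 for Sdha, a subunit of succinate dehydrogenase, to 0.37 for B2m, and Ywhaz had a larger one (0.72). Of the 4 with the highest means, the ribosomal protein genes Rpl13a and Rplp0 had SDs of 0.08 and 0.09, the actin gene Actb 0.11 and the elongation factor gene Eef1a1 0.15. Actb lay between 419.3 and 524.6 in all 9 libraries. None of the 15 passed the test between any pair of genotypes. Of all genes tested, 0.361% passed for double KO against control, 0.0% for compound KO against control and 0.0139% for double against compound KO. With shares this low, the lack of a call cannot show whether these genes are stable. The median log2 fold change of the 15, double KO over control, was 0.01, as over all genes tested. It was -0.12 for compound KO over control, against 0.02 over all genes tested. For double KO over compound KO it was 0.16, against -0.01.

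**Figure D2:**
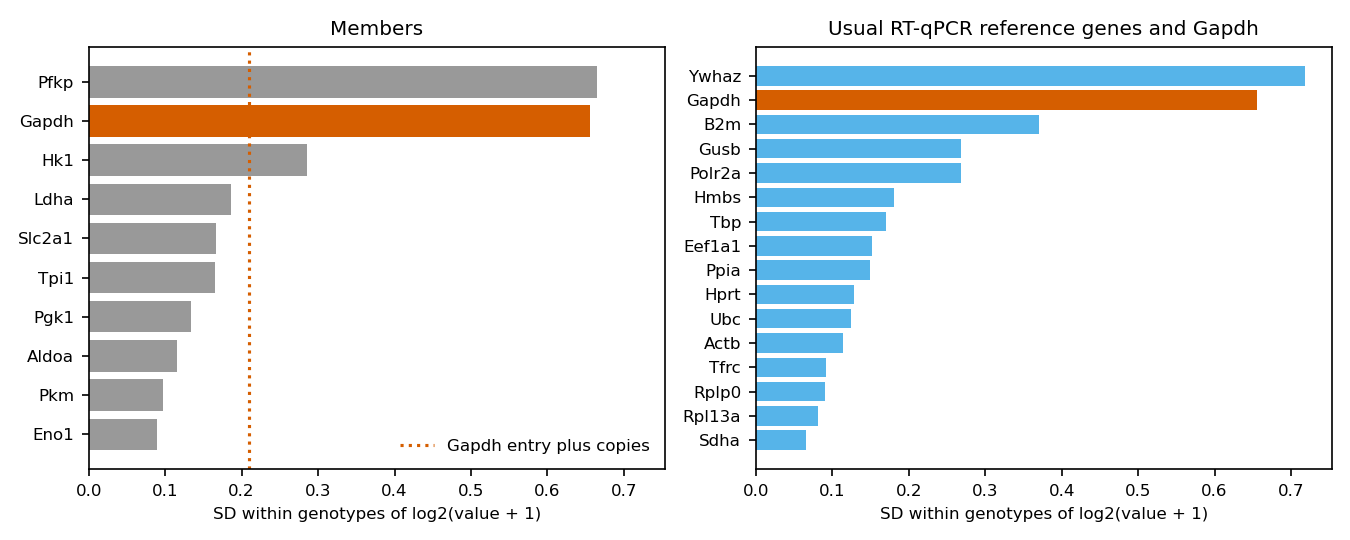
SD of log2(value + 1) within genotypes, pooled over the 3 groups (x axis), for the 10 members (left) and for 15 usual RT-qPCR reference genes with Gapdh (right). The bar of Gapdh (0.66) is orange, and the dotted line marks the Gapdh entry plus its pseudogene copies (0.21).

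Entries of the Gapdh copies held far more signal than the Gapdh entry. Their sum was 717.5, 746.0 and 638.5 in control lenses, 487.6, 660.6 and 760.2 in compound KO lenses and 696.8, 870.1 and 800.0 in double KO lenses. It was thus 7.70 to 38.2 times the Gapdh entry, and both ends of this range were control libraries (replicates 3 and 1). The sum of entry and copies was 736.3, 780.8 and 721.4 in control lenses, 521.5, 692.5 and 811.3 in compound KO lenses and 736.2, 910.6 and 854.2 in double KO lenses. With the copies added, control replicate 3 no longer stood above the other control libraries, and the SD within genotypes was 0.21 in place of 0.66. The lowest sum was that of compound KO replicate 1. Whether the entries counted some reads more than once was not tested.

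**Figure D3:**
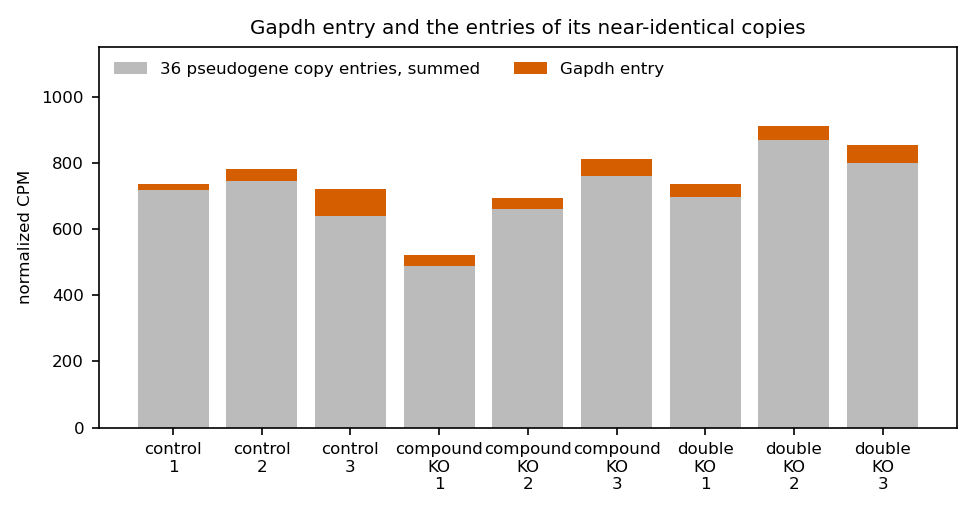
Normalized CPM (y axis) in each of the 9 libraries, with the summed entries of 36 Gapdh pseudogene copies in grey and the Gapdh entry stacked on top in orange. The orange part runs from 18.8 in control replicate 1 to 82.9 in control replicate 3, on grey bars of 487.6 to 870.1.

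Most copies with high values kept a nearly fixed ratio to each other over the libraries, and Gm13394 did not. Gm5559 had values of 81.2, 95.9 and 88.8 in control, 60.9, 92.3 and 91.7 in compound KO and 101.8, 113.7 and 113.9 in double KO lenses, with an SD of 0.21. Gm13394, the copy with the highest mean (140.8), had values of 209.3, 162.8 and 104.7 in control, 110.0, 104.6 and 197.0 in compound KO and 81.9, 185.3 and 111.8 in double KO lenses, with an SD of 0.53. In control lenses its order was the reverse of that of the Gapdh entry, but in compound KO lenses both were highest in replicate 3. Over the 9 libraries, Pearson's r between log2 values of the Gapdh entry and of the summed copies was 0.08, as a description of points that share libraries. For Pgk1 and its copies, r was 0.99. Pgk1 copies summed to 131.5, 138.5 and 118.8 in control, 101.8, 116.0 and 106.1 in compound KO and 143.6, 188.5 and 168.4 in double KO lenses, and thus followed the order of Pgk1 itself. The Eno1 copy Gm4735 lay between 249.1 and 274.8 in every library.

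**Figure D4:**
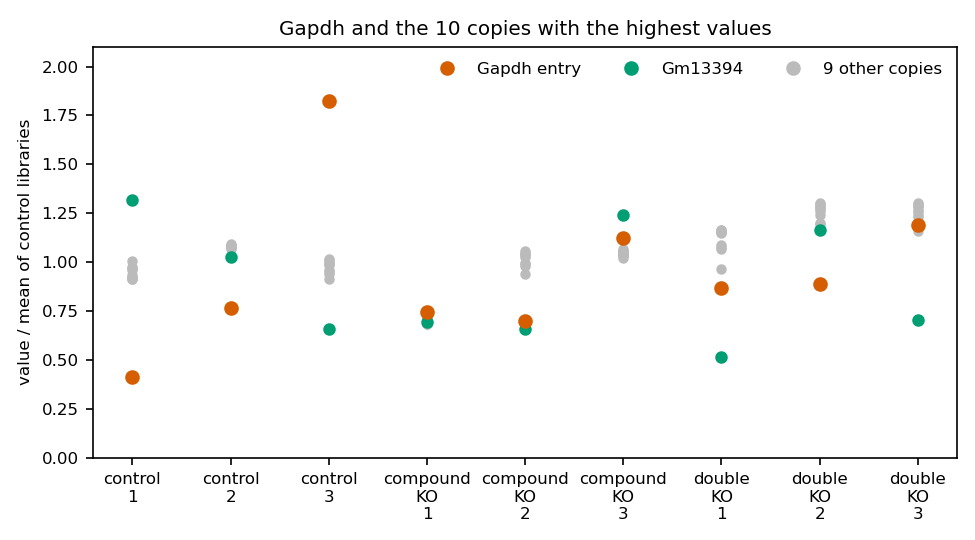
Value of the Gapdh entry (orange), of Gm13394 (green) and of the next 9 copies by mean value (grey), each divided by its mean in the control libraries (y axis), in the 9 libraries (x axis). The grey points of a library lie close together, while the orange and green points of control replicates 1 and 3 lie apart from them in opposite directions.

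Levels of different genes were compared per kilobase of the canonical transcript in control lenses. Pkm, the pyruvate kinase of the last step, was highest at 548 ± 40.7 CPM per kb (SD, n = 3). Aldoa, the aldolase that splits fructose bisphosphate, stood at 229 ± 24.9 and Eno1 at 217 ± 13.0, which did not differ beyond their spread. Ldha (180 ± 4.20) and Slc2a1 (157 ± 1.94) followed. Pgk1, the first ATP-yielding enzyme, had 137 ± 9.35 and the triose isomerase Tpi1 had 130 ± 6.05 CPM per kb, again within their spread. The Gapdh entry alone had 32.0 ± 23.5, below all of these. Hexokinase 1 (Hk1), which traps glucose as glucose 6-phosphate, had 6.33 ± 0.28 and Pfkp 0.81 ± 0.21 CPM per kb. With the entries of pseudogene copies added, per kilobase of the member's own transcript, Gapdh stood at 525 ± 21.8, Eno1 at 329 ± 17.5 and Pgk1 at 208 ± 14.3, so that the order of these members depends on the copies. This sum was added after the values were seen. It held only copies annotated as pseudogenes, and thus left out Eno1b, an Eno1 retrocopy by symbol with a control value of 397.7 ± 21.8.

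No member passed the test between double KO and control lenses, in which 51 of 14122 genes tested (0.361%) passed, with a change of 1.5-fold or more and an adjusted p no higher than 0.05 (limma, two-sided, Benjamini-Hochberg adjustment). Still, 9 of 10 members had a positive log2 fold change, as did 52.8% of all genes tested, and the median of the members was 0.25 against 0.01 over all genes tested. At an unadjusted p of at most 0.05, 5 members were higher (4.79% of all genes tested) and 1 was lower (5.18%), that is 6 of 10 in either direction (9.97%). All libraries of the groups lay apart for 4 members in the higher direction (7.78% of all genes tested) and for 1 in the lower (8.04%). Summed over the 10 members, values were 3591 to 3879 in control lenses, 3279 to 3552 in compound KO lenses and 3986 to 4360 in double KO lenses.

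The transporter and 3 enzymes made up the 4 members without overlap in the higher direction. Slc2a1 (GLUT1; chromosome 4, 118965908 to 118996365, GRCm39 as for all positions), which brings glucose into the cell, had values of 708.8, 691.8 and 697.9 in control lenses, 536.7, 721.7 and 750.0 in compound KO lenses and 792.5, 851.2 and 926.2 in double KO lenses. Every double KO library lay above every other library. Its log2 fold change, double KO over control, was 0.29 (SE 0.07, adjusted p = 0.251, limma). The means (856.6 against 699.5) differed by more than the SD of either group (67.0 and 8.61), but the difference did not pass the test over all genes.

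Aldoa (chromosome 7, 126393822 to 126399923) had values of 340.8, 385.8 and 311.1 in control, 291.0, 311.0 and 309.5 in compound KO and 413.2, 442.5 and 482.8 in double KO lenses. Those of the double KO were above all others, and the compound KO libraries lay below the control libraries by a narrow margin. For Aldoa the log2 fold change was 0.37 (SE 0.10, adjusted p = 0.310, limma). Pgk1 (chromosome X, 105230706 to 105247305) had values of 242.8, 269.6 and 237.9 in control, 200.0, 219.8 and 211.3 in compound KO and 272.6, 358.8 and 321.7 in double KO lenses. The 3 genotypes did not overlap, in the same order as for Aldoa. The log2 fold change was 0.34 (SE 0.11, adjusted p = 0.406, limma), and it was 0.34 also with the Pgk1 copies added. Across the 9 libraries Aldoa and Pgk1 had an r of 0.94 on the log2 scale and, after removal of the genotype means, of 0.65, which describes libraries that share genotypes and scaling.

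Ldha (chromosome 7, 46490899 to 46505061) had values of 291.5, 279.0 and 289.3 in control, 361.8, 264.1 and 244.3 in compound KO and 345.5, 389.4 and 333.6 in double KO lenses. Double KO libraries lay above the control libraries, and compound KO replicate 1 stood among them. The log2 fold change was 0.31 (SE 0.07, adjusted p = 0.242, limma). Pkm (chromosome 9, 59563364 to 59586663), with values of 1259.6, 1452.0 and 1311.0 in control and 1361.4, 1465.5 and 1428.2 in double KO lenses, overlapped between these groups, with a log2 fold change of 0.08. Eno1 (chromosome 4, 150321073 to 150337027) and Tpi1 (chromosome 6, 124787549 to 124791273) overlapped as well, with log2 fold changes of 0.05 and 0.16. Tpi1 lay between 182.9 and 255.5 in all 9 libraries.

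Pfkp had the largest log2 fold change of the members here, 0.71 (SE 0.24, adjusted p = 0.406, limma), but at low values, and its lowest double KO library (4.5) was level with its highest control library. Hk1 (chromosome 10, 62104621 to 62215687) was the only member with a negative log2 fold change between these groups. Its values were 26.0, 28.4 and 26.9 in control, 50.2, 27.8 and 27.3 in compound KO and 24.3, 23.0 and 24.8 in double KO lenses. All double KO libraries lay below the others, and compound KO replicate 1 lay far above them. The log2 fold change was -0.17 (SE 0.06, adjusted p = 0.482, limma). For Gapdh the log2 fold change was 0.21 (SE 0.52) with a 95% interval of -1.09 to 1.51, although its arithmetic mean was slightly lower in double KO than in control lenses. With the copies added it was 0.15 (SE 0.09) with an interval of -0.06 to 0.37. The interval of the entry alone therefore held both a fall and a rise by more than 2-fold, which the entry plus copies did not.

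**Figure D5:**
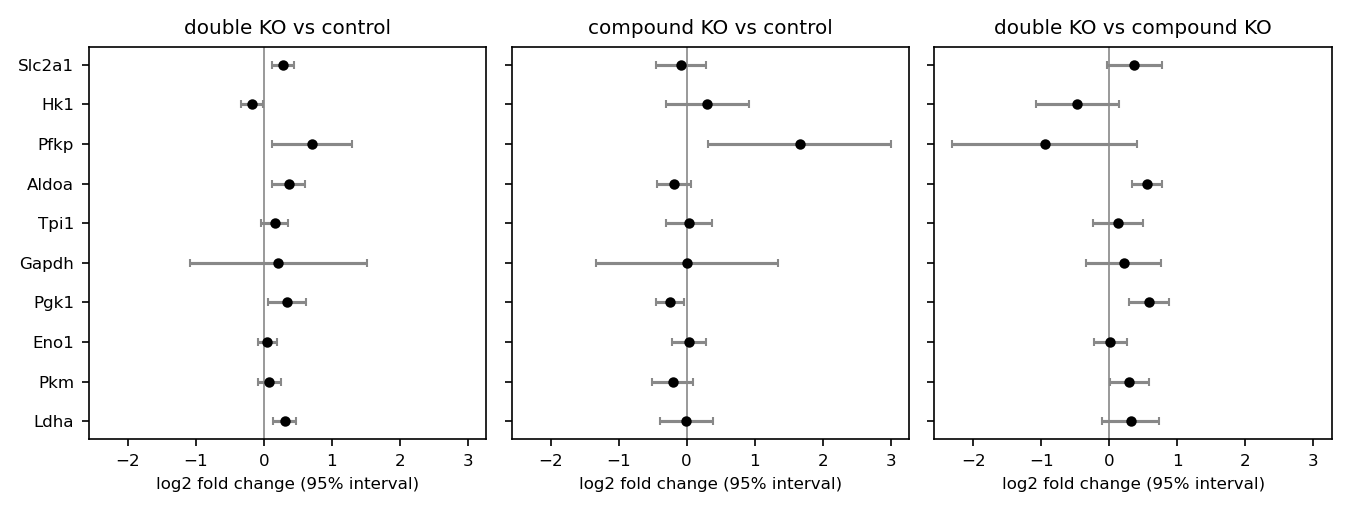
Log2 fold change (x axis, first group minus second) of each member with its 95% interval (limma) between double KO and control, compound KO and control, and double KO and compound KO lenses. The interval of Gapdh between double KO and control runs from -1.09 to 1.51, and that of Slc2a1 from 0.13 to 0.45.

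Markers of other cell types also differed between the genotypes. Skeletal muscle markers (12 of 12 in the table) summed to 34.2 to 109.9 in double KO lenses and 6.7 to 9.0 in control lenses, and 10 of 11 tested were higher without overlap (7.78% of all genes tested). Myod1, the myogenic regulator, was called among them, with a log2 fold change of 3.01 (adjusted p = 0.00386, limma). Its values were 0.2, 0.1 and 0.0 in control lenses, where every other muscle marker stood at 3.1 or less, and 9.2, 8.3 and 6.2 in double KO lenses. In compound KO lenses they were 2.6, 6.2 and 7.8, lowest in replicate 1, where Myh3, another marker of the list, stood at 116.4. The muscle markers summed to 27.3 to 453.6 in compound KO lenses, and 10 of 11 tested lay above control without overlap (12.2% of all genes tested). Erythroid markers (8 of 10 in the table) summed to 2340 to 3879 in double KO and 1171 to 1640 in control lenses, and 7 of 8 were higher without overlap (7.78%), while 0 were called (limma, lowest adjusted p = 0.215, and 5 with an unadjusted p of at most 0.05). Erythroid markers in compound KO lenses summed to 1426 to 2839. The part of these cell types in the values of Slc2a1, Aldoa, Pgk1 and Ldha was not tested.

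Compound KO and control lenses share their control libraries with the comparison above, so that the values stand side by side and are not independent. No member passed the test, as did none of 14348 genes tested (0.0%), while 1335 genes (9.3%) had an unadjusted p of at most 0.05 in limma. In this comparison 5 members had a positive log2 fold change (52.0% of all genes tested) and 5 a negative one, with a median of 0.00. Pfkp was higher at an unadjusted p of 0.0234 (5.34% of all genes tested were higher at 0.05) and Pgk1 lower at 0.0269 (3.97% were lower), both with an adjusted p of 0.481 in limma. Libraries lay apart for Pfkp in the higher direction (12.2% of all genes tested) and for Aldoa, Pgk1 and Pkm in the lower (11.7%). Pfkp (chromosome 13, 6629798 to 6698970) had values of 4.5, 2.7 and 3.3 in control, 27.0, 14.3 and 5.5 in compound KO and 7.5, 4.5 and 7.2 in double KO lenses. Its compound KO values were far apart, and the highest belonged to replicate 1. The log2 fold change was 1.66 (SE 0.54) with that library and 1.17 (SE 0.42) without it. For Hk1 it fell from 0.30 to 0.02 without that library. Ldha moved from -0.0037 to -0.17 (SE 0.05, unadjusted p = 0.025, adjusted p = 0.371, limma), and Aldoa, Pgk1 and Pkm then stood at -0.15, -0.21 and -0.14. In that fit 1 member was higher (5.82% of all genes tested) and 2 were lower (5.71%) at the unadjusted limit. In that library, retinal pigment epithelium markers summed to 699.8 and neural retina markers to 468.3, against 32.9 and 139.5 at most in the other compound KO libraries and 19.6 and 70.3 at most in control lenses, and their part in the values of Pfkp and Hk1 was not tested.

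For Gapdh the compound KO to control log2 fold change was 0.00 (SE 0.54) with an interval of -1.33 to 1.34. With copies added it was -0.17 (SE 0.18). Slc2a1 stood at -0.08 (SE 0.15) and at 0.07 without compound KO replicate 1. When libraries were scaled by their totals alone, the median of all genes tested moved from 0.02 to 0.24, and Slc2a1, Aldoa, Pgk1, Pkm and Ldha changed sign with it. The fold change of Pgk1 was then 0.01.

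Between double KO and compound KO lenses again no member passed the test, and 2 of 14402 genes did (0.0139%). A positive log2 fold change was found for 8 members (49.2% of all genes tested), with a median of 0.25 against -0.01 over all genes tested. Aldoa was higher by 0.55 (SE 0.09, unadjusted p = 0.0011, adjusted p = 0.530, limma) and Pgk1 by 0.58 (SE 0.12, unadjusted p = 0.00319, adjusted p = 0.665, limma). Pkm was higher by 0.29 (unadjusted p = 0.0488, limma), which makes 3 members higher at this limit (1.81% of all genes tested) and 0 lower (3.06%, and 4.87% in either direction). Libraries lay apart for Slc2a1, Aldoa, Pgk1 and Pkm in the higher direction (8.17%) and for Hk1 in the lower (7.39%). Without compound KO replicate 1, 5 members were higher (2.49% of all genes tested in that fit) and 1 was lower (2.87%) at the unadjusted limit, with Ldha at 0.48 in place of 0.31. Scaling by library totals moved the median of all genes tested to -0.17, and Tpi1 (-0.06) and Eno1 (-0.17) were then negative. Gapdh had a log2 fold change of 0.21 (SE 0.22), with an interval of -0.34 to 0.76.

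Whether Gapdh followed the other members over the libraries was examined by correlation of log2 values over all 9 libraries. Pearson's r with the 9 other members lay between -0.22 (Pfkp) and 0.26 (Slc2a1), and Spearman's rho between -0.35 (Hk1) and 0.40 (Slc2a1). None passed an exact permutation test over 9 relations (two-sided, adjusted p = 0.945 for every r, and 0.627 or 1.0 for rho). Without the 2 libraries farthest from the median of Gapdh, r ran from -0.44 (Hk1) to 0.65 (Slc2a1). It was 0.61 with Eno1, 0.02 with Tpi1, -0.05 with Ldha and -0.36 with Pfkp. The entries most like Gapdh among 8150 others were Thtpa (r = 0.92), Atg2a (0.92), Bet1 (0.91), Dgcr14 (0.88) and Draxin (0.87). Atg2a, which has a role in autophagosome formation, had 6.2, 13.2 and 19.5 in control lenses, in the same order as Gapdh. Thtpa ran only from 19.9 to 22.2. These entries were picked for their r with Gapdh, so that their likeness to it is no separate finding. How high an r such a choice gives by itself was not tested. By the same measure Slc2a1, the likest of the members, came 1678th and Tpi1 6122nd, while Pfkp lay under the minimum mean of 10. With the summed Gapdh copies, r of the other members ran from -0.88 (Hk1) to 0.88 (Slc2a1), with -0.19 for Tpi1 and -0.04 for Ldha. Compound KO replicate 1 held the lowest values of Slc2a1 and of the copies and the highest of Hk1. These r values were not computed without it.

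Each library was also divided by its Gapdh value, as a reference gene is used. This divides all genes of a library by the same number, so that the results restate the spread and the fold change of the Gapdh entry and are no separate finding. The SE of Slc2a1 between double KO and control lenses was then 0.74 in place of 0.07, and those of Aldoa, Pgk1 and Ldha were each 0.73. The median log2 fold change over all genes tested moved to -0.21. Genes called numbered 32 (10 higher and 22 lower) in place of 51 (40 higher and 11 lower). This scaling used the RNA-seq entry and not a PCR product.

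Genes of the pathways around glycolysis were described by lists. No gene of these lists passed the test in any of the 3 comparisons, so the 4 members of each list with the highest means are named. Between double KO and control lenses, 7.78% of all genes tested were higher without overlap and 8.04% were lower. The genes named below as without overlap are to be read against these shares. Of the other glycolysis enzymes, 14 of 19 listed were in the table, and 12 were tested between double KO and control lenses with a median log2 fold change of 0.05. Gpi1, the glucose 6-phosphate isomerase, was higher without overlap (0.29, SE 0.07, adjusted p = 0.251, limma). Pgam2 (0.05), Pfkl (0.04) and Pgam1 (0.08) overlapped. In the opposite direction, the muscle enolase Eno3 was lower without overlap (-0.52, SE 0.10, adjusted p = 0.178, limma), with 106.5, 118.9 and 116.1 in control and 73.0, 74.3 and 90.2 in double KO lenses. The aldolase Aldoc was lower without overlap as well (-0.30, SE 0.09, adjusted p = 0.366, limma). Like the other genes of these lists that are named beyond the 4 with the highest means, both were named after their values were seen. Pgam2, the muscle-type phosphoglycerate mutase, had a mean of 537 in control lenses. In compound KO replicate 1 it was 171.9, against 456.2 or more in the other 8 libraries.

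Of glucose and lactate transporters, 7 were tested, with a median of 0.16. Slc16a3 (MCT4), a lactate exporter, was higher without overlap, with 26.9, 34.7 and 24.6 in control and 43.0, 38.2 and 45.4 in double KO lenses (log2 fold change 0.55, SE 0.14, adjusted p = 0.304, limma). Bsg, the chaperone of these transporters, stood at 0.16 and Slc16a1 (MCT1) at -0.16. At low levels, Slc2a8 was lower without overlap (-1.02, SE 0.38, adjusted p = 0.468, limma) and Slc2a3 was higher (0.68, SE 0.21, adjusted p = 0.379, limma). Of 10 regulators tested (median 0.08), Pdk1, a kinase that closes pyruvate dehydrogenase, was higher without overlap (0.46, SE 0.15, adjusted p = 0.396, limma). Pdk3 was also higher without overlap (0.18). Pfkfb4, an enzyme that sets the level of fructose 2,6-bisphosphate, was lower without overlap at a low level (-0.65, SE 0.14, adjusted p = 0.227, limma). Hif1a (-0.26), Pdk2 (-0.08) and Pfkfb3 (0.02) overlapped.

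Pyruvate dehydrogenase and the mitochondrial pyruvate carrier (8 tested, median 0.03) held no gene at an unadjusted p of at most 0.05. Of its named genes, Pdhb stood at 0.11 and Dlat at -0.16, both without overlap, and Pdha1 at 0.03 and Dld at -0.02 with overlap. In the pentose phosphate pathway (7 tested, median 0.08), Pgls was higher without overlap (1.19, SE 0.42, adjusted p = 0.440, limma), G6pdx (-0.13, SE 0.05) and Rpe (-0.20, SE 0.08) were lower without overlap (adjusted p = 0.463 and 0.479, limma), Tkt stood at -0.10 and Taldo1 at 0.48 with an SE of 0.48. The polyol pathway turns glucose into sorbitol and fructose. Of its 4 genes (median -0.05), Sord was lower without overlap (-0.32, SE 0.08, adjusted p = 0.290, limma), and the aldose reductase Akr1b3 (-0.11), Akr1b8 (0.81, SE 0.49) and Khk (0.01) overlapped. Targets of Hif1 outside glycolysis (14 tested, median 0.10) included Bnip3l (0.04), Kdm3a (0.04), Vegfa (0.28) and P4ha1 (-0.75, SE 0.96), which overlapped. In the same list Ddit4 (0.56, SE 0.11, adjusted p = 0.215, limma) and Car9 (0.85, SE 0.23, adjusted p = 0.318, limma, values of 2.0 or less) were higher without overlap, and Ndrg1 was lower without overlap (-0.86, SE 0.33, adjusted p = 0.479, limma). Retrocopies by symbol (4 tested, median 0.31) comprised Eno1b (0.07), Pgk1-rs7 (0.35), Aldoart1 (0.53) and Gapdh-ps15 (0.27), of which the last 3 were higher without overlap (7.78% of all genes tested). Of the Gapdh pseudogene copies, 29 of 36 passed the filter on low values, 28 of these had a positive log2 fold change and 0 were called, with a median of 0.23. Since these entries match the same sequence, they do not count as separate genes.

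The promoters of the members were read from RefSeq (GRCm38.p6), with all 10 members matched, and placed on GRCm39 by exact match. Windows ran from 250 bases before to 50 bases after a start. They were searched on both strands for the core of the hypoxia response element (ACGTG or GCGTG, which read CACGT or CACGC on the other strand) because glycolytic genes are known targets of Hif1. At least 1 promoter of 9 of the 10 members held this core, as did 46.7% of 27025 genes with a promoter in the table, and Tpi1 was the exception. Members had more promoters per gene, which favours them in this count. By promoter, 13 of 17 of the members held the core, against 43.8% of 32851. Bases before the start are shown for the 3 enzymes whose double KO libraries lay above all control libraries and for Gapdh, with the core in capitals: Aldoa at chr7:126398427-126398676 (minus strand), Pgk1 at chrX:105230456-105230705 (plus strand), Ldha at chr7:46494978-46495227 (plus strand) and Gapdh at chr6:125142737-125142986 (minus strand).
Aldoa: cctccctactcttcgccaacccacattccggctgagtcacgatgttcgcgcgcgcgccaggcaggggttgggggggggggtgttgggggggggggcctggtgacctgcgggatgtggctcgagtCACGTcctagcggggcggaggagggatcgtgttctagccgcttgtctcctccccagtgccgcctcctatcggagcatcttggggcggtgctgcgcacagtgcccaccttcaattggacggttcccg
Pgk1: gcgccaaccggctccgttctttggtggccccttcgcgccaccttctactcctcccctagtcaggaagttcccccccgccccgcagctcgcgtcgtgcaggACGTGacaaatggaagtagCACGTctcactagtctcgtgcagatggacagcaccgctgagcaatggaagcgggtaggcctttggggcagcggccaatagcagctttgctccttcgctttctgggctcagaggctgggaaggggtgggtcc
Ldha: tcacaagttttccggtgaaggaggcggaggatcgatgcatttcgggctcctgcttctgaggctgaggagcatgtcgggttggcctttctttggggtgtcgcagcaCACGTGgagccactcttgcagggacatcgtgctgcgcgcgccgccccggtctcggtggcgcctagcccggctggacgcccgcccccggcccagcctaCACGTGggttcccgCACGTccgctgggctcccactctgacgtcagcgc
Gapdh: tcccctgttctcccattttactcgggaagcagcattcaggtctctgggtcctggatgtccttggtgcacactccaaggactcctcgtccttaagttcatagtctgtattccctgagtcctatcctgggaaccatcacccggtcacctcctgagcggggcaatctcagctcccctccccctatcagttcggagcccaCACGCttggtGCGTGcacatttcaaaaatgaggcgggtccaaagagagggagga
Ldha held 5 cores on the 2 strands in this stretch, Pgk1 and Gapdh 2 each and Aldoa 1, where a core that reads on both strands counts once per strand. Only 1 window per gene is shown. Another window of Ldha held 1 core, and other windows of Aldoa held 1 and 0. The counts of these genes therefore depend on the window shown. The core of the antioxidant response element, to which small Maf proteins bind with partners such as Nrf2, was searched as TGACNNNGC on both strands. It was found in 2 of 10 members, Aldoa and Hk1, and in 14.0% of all genes. By promoter, it was found in 2 of 17 of the members and in 12.4% of all. A match describes the letters of a window and not a bound site, and no binding was measured here.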

How the data were processed

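RNA-seq was performed on 9 pools of 8 lenses, 3 for each genotype as given by the labels. Strand-specific libraries were read from both ends. The authors used HISAT2 for alignment (mm39), StringTie for counts per transcript and edgeR for removal of low entries and for differential expression. The calls given here come from limma instead. Trimmomatic and Cufflinks are also listed in the submitters' processing notes, and versions are not given in the sources used here. The deposited table holds one signal per entry and library, with no stated unit, read here from the values as CPM with a further scaling factor per library, rounded to 1 decimal. Whole reads could not be recovered, since every step of 0.1 occurs in each library, so the depth is unknown and no counting interval is given. The plan allowed for raw counts, and because the values are normalized limma was used.

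Tests used limma 3.58.1 in R 4.3.3 with an intensity trend on log2(value + 1), which understates changes of low genes, for each pair of genotypes, on symbol-carrying entries that reached a value of 1 in 2 or more of 6 libraries. The script was tested on simulated data. All 10 members passed this filter in every comparison. Exact permutation tests of the correlations ran over all pairings of the 9 libraries, with ranks from scipy 1.17.1. None was run on 3 against 3 libraries, where such a test cannot give a p below 0.1. Copies were found with BLAST+ 2.17.0 at 95% identity or more over 80% or more of the coding bases of the GENCODE canonical transcript, a choice made after the data were seen. Only copies annotated as pseudogenes were summed. Named are all members, the called genes of each list and otherwise its 4 highest, and the 5 entries most like Gapdh. The members and lists were chosen with earlier results of these data known. Alternatives were upper quartile, library-size and Gapdh scaling, other filters, one fit of 9 libraries, a replicate block, a pseudocount of 0.1, summed symbols, no trend, copies added, and each library left out.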

Additional observations from a re-analysis of the deposited data

How the results depend on the processing

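No member was called in any comparison under any alternative run. Genes called between double KO and control numbered 51, and 32 with Gapdh scaling, 21 with one fit of all 9 libraries, 10 with the replicate block and 22 to 47 with 1 library left out. Between compound KO and control 0 were called, 28 with Gapdh scaling, 2 with one fit and 0 to 13 with 1 library left out (13 without compound KO replicate 1). Between double KO and compound KO 2 were called, 5 with one fit, 0 with the replicate block, 0 where each library had to reach 1, 1 with a pseudocount of 0.1 and 1 to 6 with 1 library left out. For Gapdh, the log2 fold change of double KO over control (0.21) ranged from -0.28 (without control replicate 1) to 0.76 with 1 library left out. Between compound KO and control it was 0.00, turned to -0.0056 with upper quartile scaling and -0.17 with copies added, and ranged from -0.49 to 0.55 with 1 library left out, negative without control replicate 1 (-0.49), control replicate 2 (-0.06) or compound KO replicate 3 (-0.20). The SD of Gapdh within genotypes (0.66) was 0.46 with the replicate block, 0.21 with copies added, which was chosen after seeing the data, and 0.39 to 0.71 with 1 library left out. The count of members with a larger SD (1) was 2 with copies added and 0 to 1 with 1 library left out. The cause of these differences was not tested. Libraries with the same replicate number had correlations of their deviations between -0.11 and 0.22, and not every library correlated best with its own number. These values do not show whether libraries with the same number share a batch, which was not tested. The Gapdh entry was highest in replicate 3 of each genotype (82.9 in control, 51.1 in compound KO and 54.2 in double KO lenses). The unknown depth limits what can be said of low entries such as Pfkp.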
